A study of Mus musculus with 6 samples.

Results

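The clustered protocadherins are cell surface proteins of the cadherin family, encoded on mouse chromosome 18 in 3 neighbouring gene clusters, alpha, beta and gamma. They were taken from the deposited gene table by biotype and symbol, as protein-coding genes named Pcdha, Pcdhb, Pcdhga, Pcdhgb or Pcdhgc with a number, or with the letter c and a number, which gave 57 of 54532 genes. These were 14 alpha, 22 beta and 21 gamma members. The RNA came from cells that the labels call iCDCs and the study iECDCs, immortalized cardiosphere-derived cells, a mesenchymal-like cell type grown from the epicardium of the ventricle of C57BL/6 mice and kept dividing with a lentivirus carrying human telomerase (hTERT). Per the labels, the 3 control samples were iCDCs at passage 30, and the 3 induced samples were iCDCs at passage 30 given 10 µM of 5-azacytidine (5-aza) for 3 days and then kept for 4 weeks in IMDM with 2% serum. 5-aza is a cytidine analog that traps DNA methyltransferases and so lowers DNA methylation in dividing cells, and it was used to start cardiac differentiation. All libraries came from 1 immortalized line. Labels and study methods give different media and lengths for the culture after 5-aza. The study's routine medium for these cells was IMDM with more serum than the induced culture had. The time and medium of the control samples themselves are not given in the sources used here. Drug, serum and time in culture therefore cannot be told apart.

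Each alpha and gamma member has its own promoter and its own large first exon, which codes for the outside of the protein and the membrane span, and this exon is spliced to 3 constant exons that all members of the cluster share and that code for the common inner part. Beta members are single-exon genes without a constant part. The proteins bind copies of themselves on neighbouring cells, and they are best known from neurons, where each cell picks its own few members and so tells its own branches from those of others. Promoter choice is known to involve DNA methylation, the DNA-binding protein CTCF and the cohesin ring, while the C-type members (Pcdhac1, Pcdhac2, Pcdhgc3, Pcdhgc4 and Pcdhgc5), which lie at the end of the alpha and gamma clusters, are controlled apart from the rest.

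The libraries held 19041133 to 19823369 reads in genes, and 0 reads in a library allowed a level of up to 0.151 to 0.158 CPM (read counts scaled to the library total), taking 3 reads as the limit. Such limits and the intervals on reads below cover counting error only. All 8 mesenchymal markers of cardiosphere-derived cells and all 7 epicardial markers were detected in both groups. Wt1 and Tcf21 were among the latter, with 1164 and 852 control reads, although the study describes its cardiosphere-derived cells as negative for both. In the all-gene test, 9225 of 14246 genes passed an adjusted p of 0.05, so that the background share of changed genes was 64.8%. The samples are named as separate in the labels, but nothing says that they came from separate cultures, so p-values measure the spread between these samples, which may be technical.

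Clustered protocadherin RNA was present in control cells and was higher in induced cells, mainly from the beta cluster, from Pcdhgc3 and from the gamma A and gamma B members, while Pcdhgc5 was lower. All members together held 6631 to 6880 reads per control library and 7550 to 7859 per induced library. Their summed level was 341 ± 3.40 TMM-scaled CPM (mean ± SD, n = 3; CPM after scaling for RNA composition) in the control group and 405 ± 7.54 in the induced group, which was 1.19 times as high. In bulk RNA, a change in the number of cells that use a gene and a change in RNA per cell cannot be told apart.

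Of the 57 members, 30 passed the filter on low counts, which were 1 alpha, 15 beta and 14 gamma genes. With the quasi-likelihood test of edgeR, adjusted by Benjamini-Hochberg over all 14246 genes, 15 of these 30 rose, 2 fell and 13 did not pass an adjusted p of 0.05. The share called was 56.7%, below the background of 64.8%. By direction, 15 of 30 were called higher against a background of 32.6% and 2 of 30 were called lower against 32.2%. The median log2 fold change was 0.35 over the tested members and -0.01 over all tested genes. The 3 control and 3 induced values did not overlap for 15 members that were higher and 3 that were lower, 60.0% of the 30, against 68.6% of all tested genes in either direction and 34.1% higher. A change of at least 2-fold was called for 4 members, Pcdhga1, Pcdhgb1, Pcdhgb4 and Pcdhgb6, against 17.1% of all tested genes. For these 4 and Pcdhga4, every induced but not every control library reached the cutoff of the filter. No control library of Pcdhgb1 or Pcdhgb4 reached it, so that a called change in them had to be a rise. For Pcdhga1, Pcdhgb6 and Pcdhga4 some control libraries did, so that the filter favoured a rise without forcing it. For Pcdhac2, every control but not every induced library reached the cutoff. The other 27 members were not tested and held 190 control and 209 induced reads in all, with at most 48 reads in any of them over the 6 libraries.

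**Figure D1:**
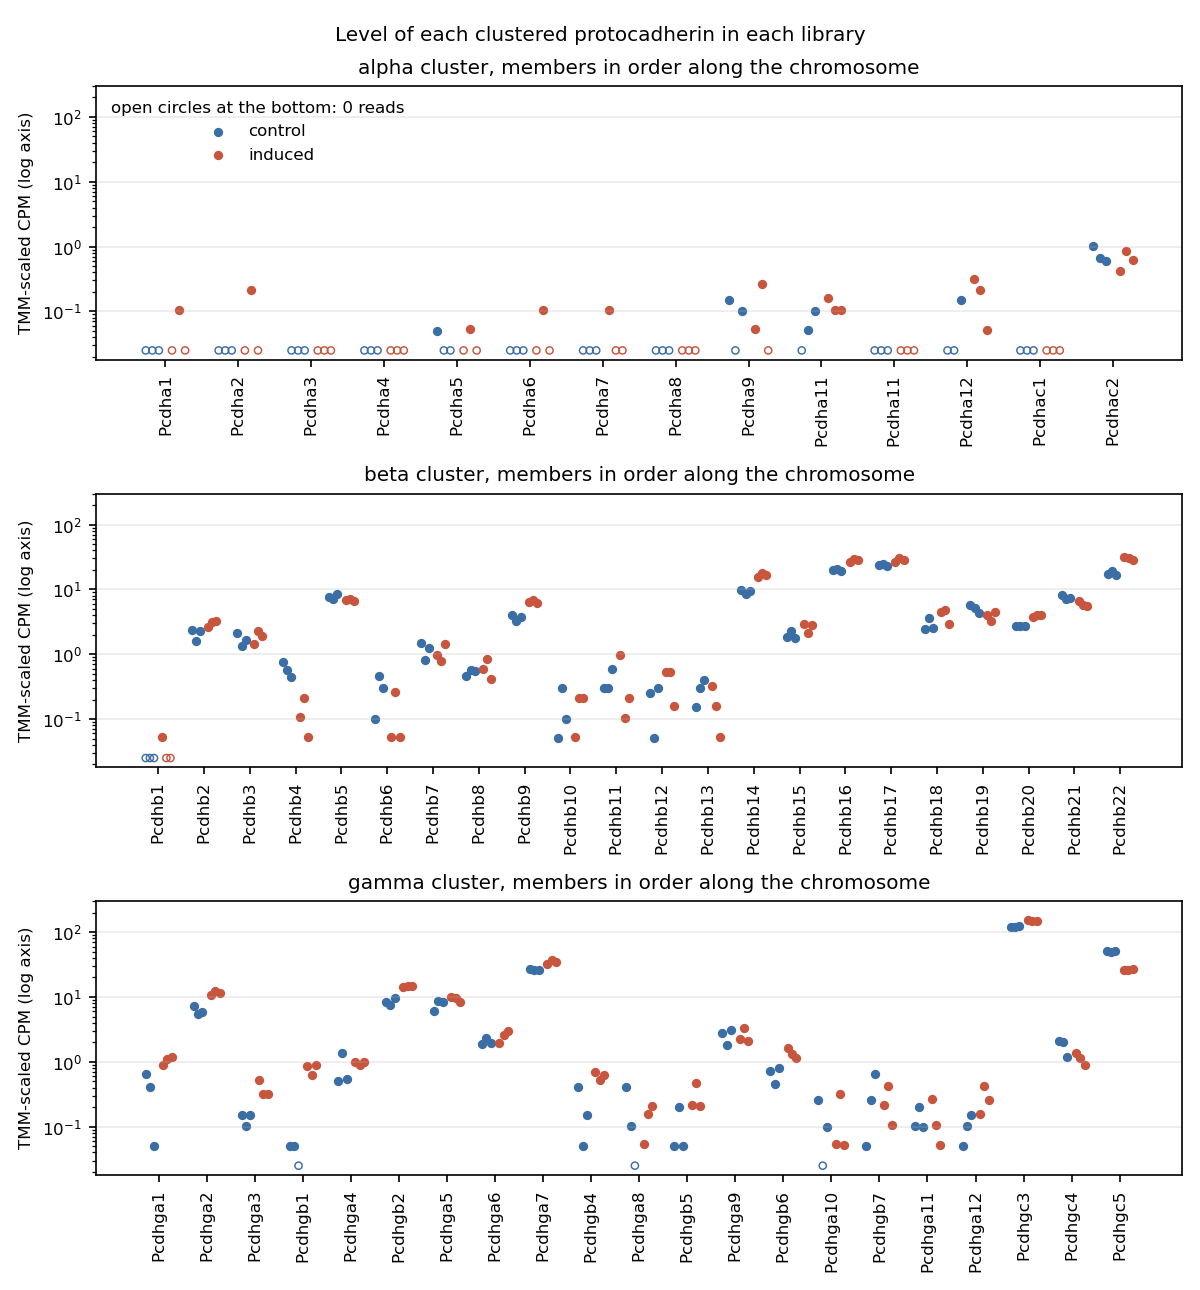
Level of each of the 57 clustered protocadherins in each library, in TMM-scaled CPM on a log axis, with control libraries in blue, induced libraries in red and open circles at the bottom for 0 reads. Most alpha members sit at or near 0 reads in both groups, and the beta members from Pcdhb14 onwards hold most of the beta signal. Pcdhgc3 is the highest gamma member in every library. Pcdhgc5 is second in control libraries and lower in every induced library, where Pcdhga7 stands above it.

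How much of a member's count is its own depends on the shared exons. By the GENCODE M21 annotation (GRCm38, mm10), 2860 exon bases are common to all 14 alpha members and 2116 to all 21 gamma members, which is 53.4% and 43.3% of the median deposited gene length in these clusters. In the beta cluster, 19 of 22 members share no exon base with any other gene. The deposited gene lengths equalled the M21 exon length for 57 of 57 members, so the constant exons are counted in each member's length. The reads, in contrast, were not given to every member: Pcdhga10 held 15 reads over the 6 libraries, while Pcdhgc3 held 15735. Reads of the constant exons may have been left out or assigned to some members, since the counting options are not given in the sources used here, and values of alpha and gamma members are uncertain to that extent. Reads, CPM and shares of reads below therefore depend on a member's length and overlaps, and levels of different members are compared per kb of exon that belongs to no other gene. Among the 19 members with no shared exon base, 13 were tested, and 6 rose and 0 fell (edgeR). The share called was 46.2%, below the 64.8% of all tested genes, where 32.6% were higher and 32.2% lower. Pcdhb5 was lower in every induced library but did not pass.

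Pcdhgc3, a C-type gamma member known to bind Axin1, an inhibitor of Wnt signalling, was the leading member and rose. It lies on the plus strand of chromosome 18 from 37806364 to 37841873. Its level was 119, 121 and 126 CPM in the control libraries and 152, 148 and 148 CPM in the induced libraries, so that the groups did not overlap. Means were 122 ± 3.28 and 149 ± 2.29 CPM (SD, n = 3), a 1.23-fold rise (log2 fold change 0.29 ± 0.0485 SE, edgeR adjusted p = 3.35e-05). Per kb of unshared exon this was 66.9 CPM for control and 82.1 CPM for induced cells, the highest of all members in both groups. The strand setting is not known, and if antisense genes took no reads from it the values would be 36.1 and 44.2 CPM per kb, still the highest. BC037039, an antisense gene that overlaps its exons, held 91 control and 42 induced reads, and 66.9% of the exon bases of Pcdhgc3 lie in some other gene, so a part of its count is uncertain.

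Pcdhgc5, the last gene of the cluster and a C-type member best known from the postnatal brain, moved the other way. It lies between 37819513 and 37841873. Its level was 50.6, 48.7 and 51.1 CPM in control libraries against 26.3, 25.7 and 26.7 CPM in induced libraries. Every induced value was near 0.523 times the control mean, and the spread within either group was small beside that gap. The means were 50.1 ± 1.28 and 26.2 ± 0.506 CPM (SD, n = 3), 1.91-fold lower in induced cells (log2 fold change -0.94 ± 0.0598 SE, edgeR adjusted p = 1.31e-10). Within each library, the ratio of Pcdhgc3 to Pcdhgc5 reads was 2.36 to 2.48 in control cells and 5.55 to 5.79 in induced cells, which needs no scaling between libraries. An exact two-sided permutation test of 3 against 3 libraries cannot go below p = 0.1, so no p is given for this ratio.

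Pcdhgc4, the C-type member between them, had far fewer reads. It gave 2.13, 2.04 and 1.2 CPM in control and 1.38, 1.16 and 0.891 CPM in induced libraries, so that the third control library lay within the induced range. Its log2 fold change was -0.64 (95% interval -1.28 to -0.01) and did not pass (edgeR adjusted p = 0.0701). Without control replicate 3 it was -0.86 with an adjusted p of 0.0227. Of the 5 C-type members 4 were tested, and 1 rose and 1 fell (50% called, against 64.8% of all tested genes).

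Gamma A and gamma B members use alternate first exons of the same cluster, and the sum of each subgroup was higher in every induced library. Gamma A members summed to 46.6, 46.6 and 46.9 CPM in control and 60.1, 69.0 and 63.1 CPM in induced libraries, a ratio of 1.37. Gamma B members summed to 9.58, 8.51 and 11.5 CPM in control and 17.8, 18 and 18 CPM in induced libraries, a ratio of 1.82. The 3 gamma C members summed to 174 ± 3.58 and 177 ± 2.57 CPM, a ratio of 1.02, since the rise of Pcdhgc3 and the fall of Pcdhgc5 nearly offset each other. The whole gamma cluster went from 230.3 ± 5.24 to 259 ± 2.76 CPM (SD, n = 3), a ratio of 1.12, which was 1.01 without Pcdhgc3.

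Of 12 gamma A members 7 were tested and 3 rose (42.9% called, against 64.8% of all tested genes). Of 6 gamma B members 4 were tested and called higher, of which only Pcdhgb2 passed the filter in both groups. Nothing is read from this gamma B count. Pcdhga7 had the most reads of the gamma A and gamma B members, with 26.7, 26.1 and 26.4 CPM in control and 32.4, 37.4 and 35.0 CPM in induced libraries. It was higher in each induced library than in any control library (log2 fold change 0.40 ± 0.0702 SE, edgeR adjusted p = 6.26e-05). Pcdhga2, near the start of the cluster, had 7.15, 5.40 and 5.86 CPM in control and 10.7, 12.6 and 11.5 CPM in induced libraries, a 1.89-fold rise (adjusted p = 5.18e-06). Pcdhgb2 had 8.31, 7.49 and 9.82 CPM in control and 14.2, 14.7 and 15 CPM in induced libraries. Its rise was 1.71-fold (log2 fold change 0.78 ± 0.111 SE, adjusted p = 6.57e-06). All 3 of these had control and induced values that did not overlap.

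The 4 members called at 2-fold or more had few reads. Pcdhgb1 was close to absent in control cells, with 1, 1 and 0 reads, and had 16, 12 and 17 reads in induced libraries. The ratio of its pooled reads, scaled for depth, was 23.5 with an exact binomial 95% interval of 6.13 to 200 (edgeR adjusted p = 1.88e-05), and the reads themselves are few. Pcdhga1 had 13, 8 and 1 reads in control and 17, 21 and 23 in induced libraries (0.372 ± 0.306 to 1.07 ± 0.154 CPM, log2 fold change 1.51, adjusted p = 0.00993). The lowest control library set much of that change, and without control replicate 3 the log2 fold change was 1.00 and the adjusted p 0.0526. Pcdhgb4 had 8, 1 and 3 against 13, 10 and 12 reads (log2 fold change 1.57, adjusted p = 0.0178), and Pcdhgb6 had 14, 9 and 16 against 31, 25 and 22 reads (log2 fold change 1.05, adjusted p = 0.0099). Pcdhgb4 lost its call without control replicate 2 (adjusted p = 0.093), without control replicate 3 (0.0645) and without induced replicate 1 (0.0559). Pcdhgb6 lost it without control replicate 2 (0.0588) and without induced replicate 1 (0.0504). DESeq2 called neither Pcdhgb4 (0.0882) nor Pcdhgb6 (0.0535), and limma on log2(FPKM + 1) did not call Pcdhgb4 (0.0788).

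The gamma A members that did not pass were Pcdhga4, Pcdhga5, Pcdhga6 and Pcdhga9. Pcdhga5 had the most reads of these, at 7.72 ± 1.46 and 9.33 ± 0.868 CPM, with a log2 fold change of 0.27 (95% interval -0.02 to 0.57, edgeR adjusted p = 0.0964). Pcdhga9 stood at 2.54 and 2.55 CPM, and its 95% interval of -0.52 to 0.52 on the log2 scale leaves room for a change of either sign. The 7 untested gamma members had 15 to 33 reads each over the 6 libraries. Among these, the induced reads exceeded all control reads for Pcdhga3 (3, 2 and 3 against 10, 6 and 6 reads). Pcdhgb5 (1, 4 and 1 against 4, 9 and 4 reads) and Pcdhga12 (1, 2 and 3 against 3, 8 and 5 reads) were apart in CPM but tied in reads. This is a description of few reads with no test.

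**Figure D2:**
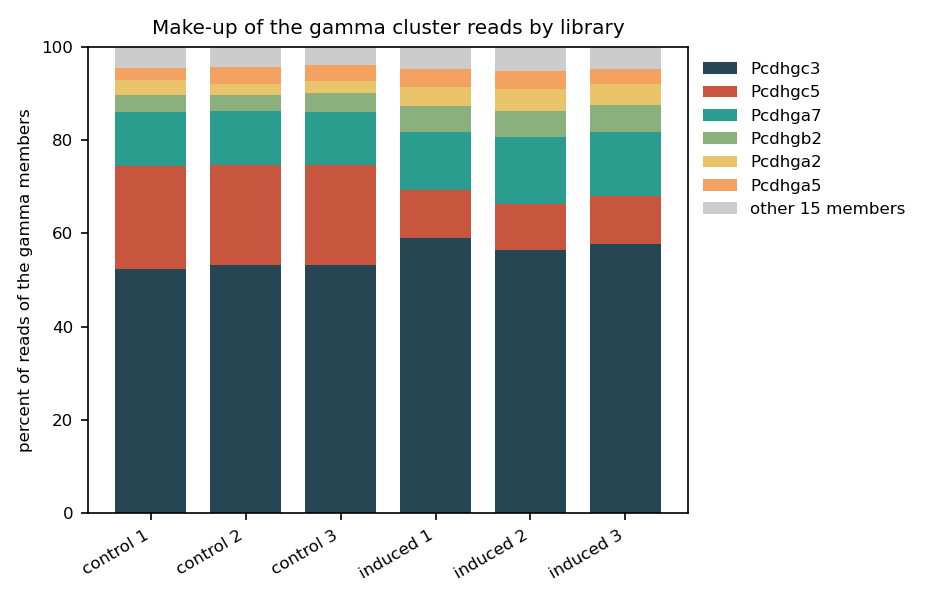
Share of the reads of the 21 gamma members, in percent, that each of 6 leading members and the other 15 members took in each library. Pcdhgc5 took 21.8% on average in control and 10.1% in induced libraries, and the shares of Pcdhgc3, Pcdhga7, Pcdhgb2 and Pcdhga2 were higher in the induced libraries.

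The make-up of the gamma cluster differed between the groups in every library. Pcdhgc3 took 52.9% ± 0.532 of the gamma reads in control and 57.8% ± 1.25 in induced cells, and Pcdhgc5 took 21.8% ± 0.349 and 10.1% ± 0.299 (SD, n = 3). The 3 gamma C members together took 75.3% to 75.7% of the gamma reads in control and 66.8% to 69.8% in induced libraries. Gamma A members took 19.9% to 20.6% and then 23.3% to 26.3%, and gamma B members 3.76% to 4.85% and then 6.89% to 7.02%. In both groups few members held most of the reads: Pcdhgc3, Pcdhgc5, Pcdhga7 and Pcdhgb2 held 89.6% to 90.1% of the gamma reads in control libraries and 86.2% to 87.6% in induced libraries. These shares of bulk reads do not show how many members a single cell used.

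The beta cluster had the higher ratio of the 2 well detected clusters. Its 22 members summed to 111, 111 and 107 CPM in control and 143, 149.5 and 142 CPM in induced libraries, with no overlap. The means were 110 ± 1.98 and 145 ± 4.21 CPM (SD, n = 3), a ratio of 1.32. Whether this ratio differs from that of the gamma cluster was not tested. Of 15 tested beta members 7 rose, 1 fell and 7 did not pass (53.3% called, against 64.8% of all tested genes).

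The signal lay in the later genes of the cluster. Pcdhb14 to Pcdhb22, 9 genes, held 81.1% to 84.9% of the beta reads in control and 85.1% to 85.7% in induced libraries, and their sum went from 90.7 ± 3.52 to 123 ± 3.26 CPM, a ratio of 1.36. All 9 were tested, and 5 rose and 1 fell (66.7% called, near the 64.8% of all tested genes). Pcdhb1 to Pcdhb13 summed to 18.9 ± 1.95 and 21.3 ± 1.02 CPM, with 2 of 6 tested members called (33.3%), both higher. The 4 members with the most reads (Pcdhb17, Pcdhb16, Pcdhb22 and Pcdhb14) held 63.4% to 66.1% of beta reads in control and 69.9% to 71.8% in induced libraries.

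Pcdhb22, the last beta gene, had 17.2, 19.4 and 16.6 CPM in control and 31.7, 30.1 and 28.1 CPM in induced libraries. It rose 1.69-fold (log2 fold change 0.76 ± 0.0817 SE, edgeR adjusted p = 1.84e-07). The gene before it, Pcdhb21, whose annotated end overlaps the start of Pcdhb22, had 8.06, 7.08 and 7.36 CPM in control and 6.59, 5.79 and 5.50 CPM in induced libraries. This was the beta member called lower (log2 fold change -0.33, adjusted p = 0.0351), and reads of the overlap are uncertain for both genes. The Pcdhb22 to Pcdhb21 ratio within a library was 2.13 to 2.73 in control and 4.81 to 5.21 in induced cells. The call on Pcdhb21 was lost without control replicate 1 (adjusted p = 0.128), control replicate 3 (0.0619), induced replicate 2 (0.0756) or induced replicate 3 (0.129), by DESeq2 (0.15) and without the filter on low counts (0.0526), always with a negative log2 fold change.

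Pcdhb14 had 9.68, 8.46 and 9.32 CPM in control and 15.7, 17.7 and 16.8 CPM in induced libraries. It showed the largest rise among the beta members that were called (1.83-fold, log2 fold change 0.87 ± 0.0997 SE, edgeR adjusted p = 4.14e-07). Pcdhb16 had 19.7, 20.7 and 19.3 CPM in control and 26.3, 29.1 and 28.5 CPM in induced libraries (log2 fold change 0.49 ± 0.0757 SE, adjusted p = 1.71e-05). Pcdhb17, the beta gene with the most reads, had 23.7, 24.7 and 23.1 CPM in control and 26.1, 30.2 and 28.5 CPM in induced libraries. Its rise was the smallest of the called members, at 1.19-fold (log2 fold change 0.25 ± 0.0757 SE, adjusted p = 0.00829). None of these 3 genes shares an exon base with another gene.

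Pcdhb9 had 4.05, 3.26 and 3.81 CPM in control and 6.43, 6.79 and 6.08 CPM in induced libraries, a 1.73-fold rise (edgeR adjusted p = 0.000174). Pcdhb20 had 2.69, 2.70 and 2.76 CPM in control and 3.77, 4.05 and 4.09 CPM in induced libraries (log2 fold change 0.55, adjusted p = 0.011). Pcdhb2 had 2.33, 1.58 and 2.30 CPM in control and 2.66, 3.10 and 3.20 CPM in induced libraries (log2 fold change 0.53, adjusted p = 0.0449). The groups did not overlap for any of the 3, but the call on Pcdhb2 was lost without control replicate 2 (adjusted p = 0.19), induced replicate 2 (0.0842) or induced replicate 3 (0.114), and DESeq2 did not call Pcdhb2 (0.139) or Pcdhb20 (0.0577).

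The 7 tested beta members that did not pass were Pcdhb3, Pcdhb5, Pcdhb7, Pcdhb8, Pcdhb15, Pcdhb18 and Pcdhb19. Pcdhb5 was lower in every induced library, at 7.83 ± 0.724 and 6.87 ± 0.236 CPM, with a log2 fold change of -0.19 (95% interval -0.45 to 0.07, edgeR adjusted p = 0.195). Pcdhb18 (log2 fold change 0.50, adjusted p = 0.0567) and Pcdhb19 (-0.38, adjusted p = 0.0615) lay close to the threshold on opposite sides of 0. Pcdhb4 did not reach the filter and had 15, 11 and 9 reads in control and 2, 4 and 1 reads in induced libraries, the only untested beta member whose groups did not overlap. Its pooled read ratio was 0.208 with an exact binomial 95% interval of 0.0781 to 0.476. Pcdhb1, at the far end of the cluster, had 1 read in all.

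The alpha cluster was close to silent in both groups. Its 14 members summed to 24, 14 and 19 reads in the control libraries and 20, 36 and 15 reads in the induced libraries, which overlapped. Of these, Pcdhac2, the C-type member at the end of the cluster, held 45 control and 36 induced reads. It gave 1.01, 0.662 and 0.601 CPM in control and 0.425, 0.842 and 0.629 CPM in induced libraries, with a log2 fold change of -0.26 (95% interval -1.08 to 0.56, edgeR adjusted p = 0.576), which was 0.01 without control replicate 1. Pcdhac1, the other C-type member, had 0 reads in all 6 libraries.

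The 13 other alpha members had 12 control and 35 induced reads, and 5 members had 0 reads in every library, namely Pcdha3, Pcdha4, Pcdha8, Pcdhac1 and one of the pair of table entries that share the symbol Pcdha11. The induced reads were spread over libraries unevenly: induced replicate 2 held 20 of the 35, and Pcdha2 had 4 reads there and 0 elsewhere. Pcdha12 had 0, 0 and 3 reads in control and 6, 4 and 1 in induced libraries, which overlapped. The Pcdha11 entry with reads had 0, 1 and 2 against 3, 2 and 2 reads. At this depth no change in a single alternate alpha member could be shown.

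**Figure D3:**
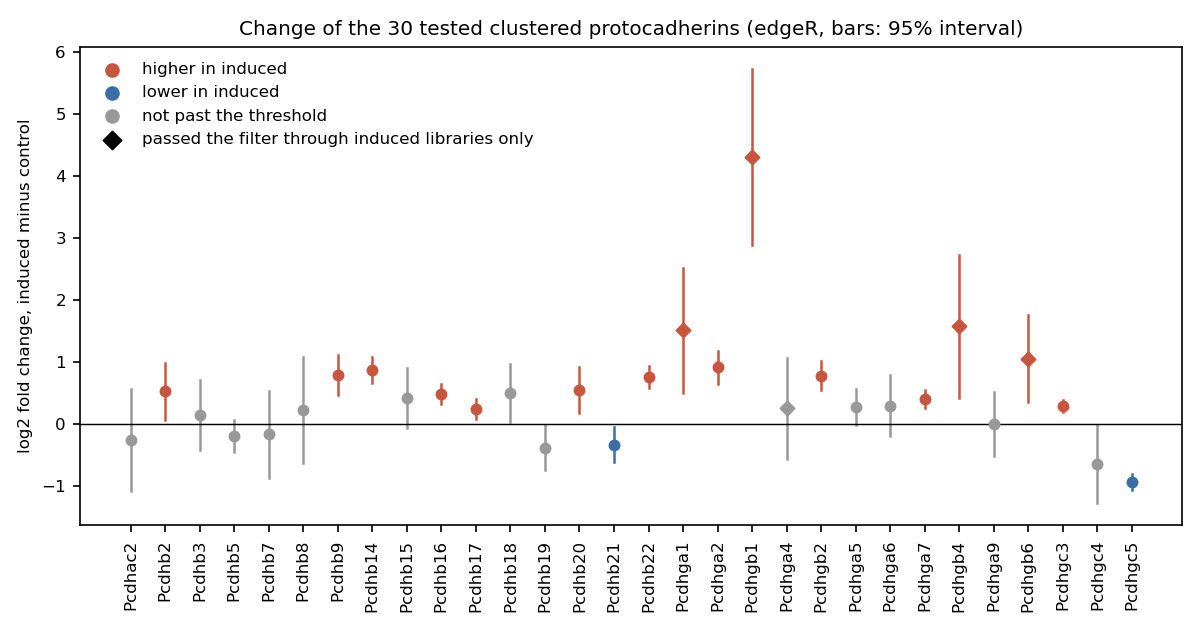
Log2 fold change, induced minus control, of the 30 tested clustered protocadherins in order along the chromosome, with 95% intervals from edgeR, in red for the 15 called higher, blue for the 2 called lower and grey for the 13 that did not pass. Diamonds mark the 5 members for which every induced but not every control library reached the cutoff of the filter on low counts. Of these, Pcdhgb1, fitted on 2 control reads, stands highest and has a value that depends on the prior count.

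The non-clustered protocadherins are single genes outside the 3 clusters that also mediate adhesion, of which Pcdh1 and Pcdh12 lie within 500 kb of them. Of 12, 7 were tested, and 4 rose and 2 fell, with a median log2 fold change of 0.62, against all-gene shares of 32.6% higher and 32.2% lower. Pcdh7, the one with the most reads, had 92.8, 94.3 and 90.6 CPM in control and 132, 155 and 139 CPM in induced libraries (log2 fold change 0.62 ± 0.0592 SE, edgeR adjusted p = 3.82e-08). Pcdh10 had 5 control and 158 induced reads in all, a pooled read ratio of 32.9 with an exact 95% interval of 13.8 to 103 (adjusted p = 5.35e-08). Pcdh11x had 1 control and 69 induced reads, a ratio of 71.9 (exact interval 12.5 to 2882, adjusted p = 1.1e-06). Pcdh18 fell (log2 fold change -0.89, adjusted p = 6.02e-05). Both Pcdh10 and Pcdh11x were low in control cells, as Pcdhgb1 was. They passed the filter on low counts only through their induced libraries, so that a called change in them had to be a rise.

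CTCF and cohesin are known to bring clustered protocadherin promoters to their enhancers. Of 11 tested CTCF, cohesin and cohesin loading or release genes, 0 rose and 8 fell, against all-gene shares of 32.6% and 32.2%, with a median log2 fold change of -0.17. The 3 that did not pass were Mau2 (log2 fold change -0.03), Wapl (0.03) and Pds5a (0.04). Rad21, the cohesin kleisin, went from 217 ± 5.35 to 124 ± 8.32 CPM (log2 fold change -0.81 ± 0.0537 SE, edgeR adjusted p = 2.42e-10). Smc3 (-0.45) and Smc1a (-0.41), the arms of the cohesin ring, and Pds5b (-0.33), a cohesin regulator, also fell. Ctcf itself had 61.7, 61.4 and 68.0 CPM in control and 54.6, 61.1 and 55.3 CPM in induced libraries, a small fall without overlap of the groups (log2 fold change -0.16, adjusted p = 0.0282).

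Of 18 tested DNA methylation and silencing genes, 2 rose and 11 fell, and the share called of 72.2% lay near the all-gene share of 64.8%, of which 32.2% were lower, with a median log2 fold change of -0.28. Uhrf1, which brings the maintenance methyltransferase to replicated DNA, had 85.3, 83.6 and 85.4 CPM in control and 22.1, 21.7 and 23.5 CPM in induced libraries (log2 fold change -1.92 ± 0.0569 SE, edgeR adjusted p = 2.42e-15). Dnmt1, that methyltransferase and the target of 5-aza, had 128, 137 and 129 CPM in control and 57.8, 53.2 and 54.0 CPM in induced libraries (-1.26 ± 0.0556 SE, adjusted p = 6.34e-13). Setdb1 (-0.77), a histone methyltransferase known to act on the protocadherin clusters, and its partner Trim28 (-0.60) fell. Dnmt3a, a methyltransferase that adds new marks, rose (0.44, adjusted p = 5.56e-07). These are RNA levels, DNA methylation was not measured, and whether any of these genes had a part in the protocadherin values was not tested.

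**Figure D4:**
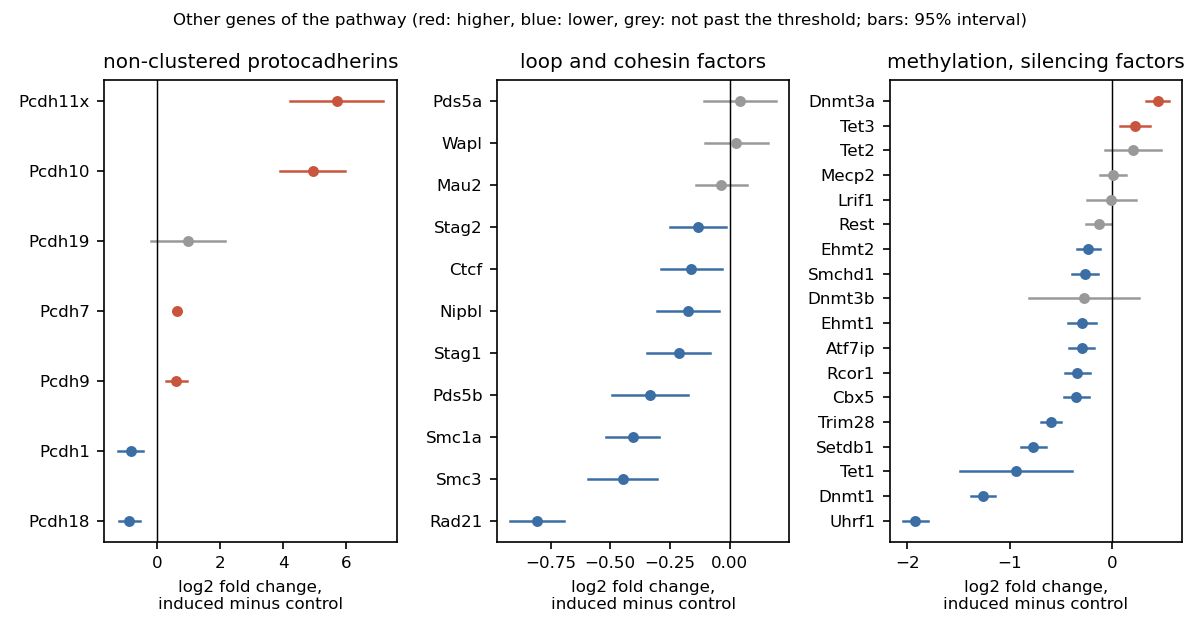
Log2 fold change, induced minus control, with 95% intervals from edgeR for the tested non-clustered protocadherins, the CTCF and cohesin genes and the DNA methylation and silencing genes, in red for genes that rose, blue for genes that fell and grey for genes that did not pass. Of the CTCF and cohesin genes 8 of 11 fell and of the silencing genes 11 of 18 fell, while the far right values of Pcdh11x and Pcdh10 rest on 1 and 5 control reads and depend on the prior count.

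Genes of proteins that act on or below the protocadherins were called at about the all-gene share of 64.8%. Of 17 intracellular partners, such as the focal adhesion kinases, the WAVE complex and Axin1, 16 were tested, and 4 rose and 7 fell (68.8% called). Marcks, a protein kinase C substrate at the membrane, fell (log2 fold change -0.64, edgeR adjusted p = 1.76e-09), as did the WAVE subunit Wasf1 (-1.15) and the kinase Fyn (-0.44), while the kinase Ptk2b rose (0.33). Of 9 tested genes of the sheddases and gamma-secretase, which cut protocadherins, 4 rose and 3 fell (77.8% called). Among those that rose were the gamma-secretase subunits Aph1b (log2 fold change 0.58), Aph1c (0.70) and Ncstn (0.20), and among those that fell was Aph1a (-0.18), another subunit.

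The other coding genes in and around the clusters showed what the rest of that stretch of chromosome 18 did. Inside the clusters or within 500 kb of them lay 32 other coding genes, Pcdh1 and Pcdh12 among them. Of these, 25 were tested, and 7 rose and 7 fell (56.0% called, against 64.8% of all tested genes). Their median log2 fold change was -0.04, against 0.35 for the tested clustered protocadherins. The latter median includes 5 members for which every induced but not every control library reached the cutoff of the filter. The genes with the smallest p were Hbegf, a growth factor (log2 fold change 1.48), Wdr55 (-0.84), Arap3 (-3.97, with 71 control and 4 induced reads) and Sra1 (0.31). Taf7, a general transcription factor subunit that lies between the beta and gamma clusters, had 3.50, 2.65 and 2.40 CPM in control and 4.94, 6.79 and 5.35 CPM in induced libraries (log2 fold change 1.00, edgeR adjusted p = 0.000142). It was chosen for its position after its values were seen. Pcdhgb8, annotated as a polymorphic pseudogene and so not a member, had 29 control and 33 induced reads.

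Since the clustered protocadherins are best known from neurons and their support cells, markers of these and other cell types were read beside them. The 11 neuron markers summed to 92.5 to 96.8 CPM in control and 32.3 to 36.9 CPM in induced libraries, with 2 genes at 0 in all libraries (Snap25 and Elavl4) and 7 under 10 reads in all. The sum was nearly all Tubb3, a tubulin also made outside neurons, which fell (edgeR log2 fold change -1.61, adjusted p = 6.36e-14). Of the others tested, Syt1 fell, with 86 control and 2 induced reads, and Map2 rose (1.03). The 9 glia markers summed to 25.9 to 28.8 CPM and 68.0 to 72.8 CPM, mostly Mbp, with Olig1, Olig2 and Sox10 at 0. The 6 endothelial markers were untested, at 0.255 to 0.557 CPM in control and 0.579 to 0.943 CPM in induced libraries, and of 7 leukocyte markers, 5, Ptprc among them, were at 0. The leukocyte sum was 1.72 to 2.15 CPM in control and 26.2 to 31.8 CPM in induced libraries, nearly all of it Cd68, a lysosomal membrane protein of macrophages, which rose (log2 fold change 3.89, adjusted p = 7.41e-15). Cardiomyocyte markers summed to 13 to 16.1 CPM and 59.3 to 62.8 CPM, mostly Tnnt2, which rose (log2 fold change 2.15), while the sarcomere gene Myh6 had 1 read in all. Epicardial markers summed to 406 to 417 CPM in control and 1244 to 1393 CPM in induced libraries, with 4 of 7 higher and 3 lower, and of the 8 mesenchymal markers 4 rose and 4 fell. The part of these markers in the protocadherin values was not tested.

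Compared per kb of exon that belongs to no other gene, Pcdhgc3 led in both groups, while Pcdhgc5 stood lower in the order in induced cells. In control cells Pcdhgc3 stood at 66.9 ± 1.80 CPM per kb, Pcdhgc5 at 10.9 ± 0.277 and Pcdhga7 at 10.3 ± 0.120. The last 2 lay near each other by this measure, but with antisense overlaps allowed, Pcdhga7 would stand at 8.53. In induced cells Pcdhgc3 stood at 82.1 ± 1.26, Pcdhga7 at 13.6 ± 0.983, Pcdhb17 at 6.07 ± 0.447 and Pcdhgc5 at 5.69 ± 0.110 CPM per kb. Pcdhb16 and Pcdhgb2 followed at 5.35 ± 0.285 and 5.30 ± 0.155, and the last 4 of these levels lay close together, each within about the spread of its neighbour. Among alpha members Pcdhac2, the one with the most reads, stood at 0.251 ± 0.0735 and 0.209 ± 0.0688 CPM per kb. These levels count only the bases that no other gene shares, and they are too high for a gamma or alpha member if reads of the constant exons were counted for it.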

How the data were processed

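RNA sequencing was done by the authors on 3 control and 3 induced samples (NEBNext Ultra RNA libraries, per the labels). Per the submitters' processing notes, HISAT2 2.0.5, featureCounts 1.5.0-p3, DESeq2 1.16.1 and mm10 were used, while the study's methods name other versions and sequencers. Counting options, strand setting and annotation release are not given in the sources used here. The authors deposited raw read counts per gene and FPKM values in the same table. Their fold changes, p-values and Gene Ontology tables were not used.

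Counts were tested in R 4.3.3 with edgeR 4.0.16 (filterByExpr with minimum count 10 and minimum total 15, TMM, two-sided quasi-likelihood test, prior count 0.125, Benjamini-Hochberg at 0.05), leaving 14246 genes with 99.9% of the reads. Levels are TMM-scaled CPM, and each standard error is the fold change over the root of F. Ratios of pooled reads have exact binomial 95% intervals scaled for depth. Members were annotated with GENCODE M21, which has the coordinates of 98.3% of the table's genes that it holds. Libraries of a group differed by more than sampling noise (chi-square per degree of freedom 2.56 to 8.91). The members and gene lists were chosen with earlier results of these data known. Values in each library are given for called members and C-type members, and of every other list up to 4 tested genes with the smallest p were named. Further genes were named after their values were seen. Results were recomputed with DESeq2 1.42.0, with median-ratio size factors or totals in place of TMM, without the count filter and with one that asked for a mean count of 10 and 1 CPM in 3 libraries, with limma 3.58.1 on deposited FPKM plus 1 or 0.1 on the log2 scale, with the replicate number as a block, at a threshold of 0.01, and with each library left out. The tests were checked on simulated counts. No sequence is printed for the members, and 1 gene that the naming rule picked is not reported here.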

Additional observations from a re-analysis of the deposited data

How the results depend on the processing

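The number of clustered protocadherins called was 17 and ranged from 13 to 18 over 9 alternatives and from 15 to 18 when each library was left out, with 13 called by DESeq2 (12 of them shared) and 13 at an adjusted p of 0.01. The number called lower was 2, and it was 1 at an adjusted p of 0.01 and 1 to 4 when each library was left out, the lowest without control replicate 1 and the highest without control replicate 3. With the replicate number as a block, 17 members were called, 16 of them shared, with Pcdhb2 lost and Pcdhb18 gained. Same-numbered control and induced samples did not deviate together (correlations 0.00, -0.02 and 0.03), and not every sample correlated best with its own number, so the samples share only a number. The ratio of the summed gamma level, 1.12, was 1.10 with library totals alone, 1.18 with the deposited FPKM and 1.01 without Pcdhgc3. That of the alpha cluster, 1.30, was 3.06 without Pcdhac2 and 0.962 to 1.54 when each library was left out, on 57 control and 71 induced reads. That of the beta cluster, 1.32, stayed between 1.29 and 1.36. Of 894 values of named genes under alternatives, 864 kept their direction and side of the threshold, 26 lost the call and 3 gained one, and the log2 fold change of Pcdhac2 turned from -0.26 to 0.0061 without control replicate 1 and ranged down to -0.51 without induced replicate 2. Among members, the calls lost were those of Pcdhb2, Pcdhb20, Pcdhb21, Pcdhga1, Pcdhgb4 and Pcdhgb6, and those gained were of Pcdhb18, Pcdhb19, Pcdhgc4 and Pcdhb4, the last by DESeq2, without the filter, and without control replicate 3 or any 1 induced replicate. Of the called members, Pcdhga1, Pcdhgb1 and Pcdhgb4 did not reach the stricter filter. The causes were not tested. Depth limits the 27 untested members, and single alpha members most.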
